A study of Homo sapiens with 8 samples.

Results

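The induced shG9a line of Kyse510 cells was compared with the same line grown without doxycycline (Dox), over all genes that reached 1 FPKM in at least 1 of the 2 libraries. FPKM is the number of sequenced fragments on a gene, scaled by gene length and by the library total. Of 28942 genes in the knockdown table, 13080 met this rule. Kyse510 is an established human line of esophageal squamous cell carcinoma (ESCC). Its cells had received a lentiviral Tet-pLKO-puro construct in which Dox switches on a hairpin against EHMT2, the gene of G9a, and had been kept in puromycin for 14 days. They were then given Dox for 2 days or left without it. A figure legend of the study names cells with a nonsilencing hairpin as the control of the knockdown libraries, but the labels give the same line without Dox, and the labels were followed. By the labels, both libraries carry the construct and the selection, and differ in Dox and in the hairpin it induces. The 2 cannot be told apart here, since no library of a line with a nonsilencing hairpin on Dox was analysed. The series holds 8 libraries with 1 library per condition, so no difference below has a replicate check and no p-value is given.

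G9a is a lysine methyltransferase that works as a pair with its relative GLP (EHMT1) and places the mono- and dimethyl marks on lysine 9 of histone H3, marks found over silent genes. Several of the gene groups below belong to the unfolded protein response. When unfolded proteins build up in the endoplasmic reticulum (ER), the sensors IRE1, ATF6 and PERK raise the ER chaperones through XBP1 and ATF6, and raise amino acid and stress genes through ATF4 and its target CHOP (DDIT3).

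The sequences of the hairpin are shown because they define what Dox induces. By the study's account the inducible line reuses the sequence of its G9a hairpin number 2, whose antisense strand is the guide, here with its seed (bases 2 to 8) in capitals.
G9a hairpin, sense strand: gctccaggaatttaacaagat
G9a hairpin, antisense strand: aTCTTGTTaaattcctggagc
The 21 bases of the sense strand matched the genome exactly on the minus strand at chr6:31882978-31882998 (GRCh38), within exon 24 of 28 of the canonical EHMT2 transcript in GENCODE 44, in the coding sequence. Among 252835 annotated transcripts, the sense strand was found in 8 transcripts of EHMT2 and in no other gene, and its reverse complement lay in EHMT2-AS1, which is annotated on the opposite strand. Whether the authors' counting used strand is not given in the sources used here, so reads of EHMT2 and EHMT2-AS1 may not be separable.

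EHMT2 itself (ENSG00000204371, chromosome 6 from 31879759 to 31897687) had 7.85 FPKM without and 4.76 FPKM with Dox, from an estimated 946 and 601 reads. The FPKM ratio was 0.607, with a 95% counting interval of 0.547 to 0.673 (Clopper-Pearson, on the reads recovered from the FPKM steps). Such intervals cover counting error only, and compare 2 libraries rather than 2 conditions. The shLSD1 line, in which Dox induces a hairpin against KDM1A, the gene of the demethylase LSD1, had 8.0 FPKM of EHMT2 without and 7.97 with Dox. The G9a partner EHMT1 had 2.67 FPKM without and 3.79 with Dox, KDM1A had 26.4 and 35.8, and WIZ, a zinc finger protein of the G9a complex, had 6.36 and 6.28. On the log2 scale of (FPKM + 1), which is used for fold changes below, the transcript of G9a was lower by 0.62. The rest of its group was mostly level or higher. Of 20 genes of H3K9 methylation and its readers, 1 was upregulated at least 2-fold, UHRF1 (3.63 to 9.93 FPKM), and 1 downregulated, KDM3A (19.7 to 8.22 FPKM), a demethylase that is also a hypoxia target. Over all genes, 5.13% were upregulated and 6.02% downregulated, so these counts were near the shares of all genes.

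Library totals recovered from the FPKM steps were 16540175 reads without and 17318283 with Dox. All 9 squamous and epithelial markers examined were at 1 FPKM or more in both libraries, with a summed level of 682 FPKM without and 970 with Dox. Of 15 listed markers of fibroblasts, immune and endothelial cells, all stayed below 1 FPKM in both libraries but COL1A1, CDH5 and, with Dox, VWF, none of which exceeded 4.79 FPKM. Their summed level was 9.46 and 9.99 FPKM, and 2 and 4 of them were listed at 0. Their part in the results was not tested.

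Fold changes below are log2 ratios of (FPKM + 1), a scale that understates the change of genes with low values. Upregulated and downregulated mean at least 2-fold on that scale unless 1.3-fold is named. The study called genes at a fold of 1.3 together with a p-value limit, and only its fold is used here. At 2-fold, 671 of 13080 genes (5.13%) were upregulated and 788 (6.02%) downregulated, and at 1.3-fold 4305 (32.9%) and 2298 (17.6%). Past 4-fold the balance was further from even, with 35 genes upregulated (0.268%) and 168 downregulated (1.28%). The counting interval of the ratio left out 1 for 545 of the upregulated and 684 of the downregulated genes. The distribution as a whole sat above 0, with a median log2 ratio of 0.18 over all genes and 0.14 over the 5922 genes that had 5 FPKM or more in each of these libraries. Subtracting 0.14 gave 414 upregulated and 1004 downregulated genes at 2-fold, so the upregulated share of these calls was 46.0% as deposited and 29.2% when centred, and at 1.3-fold it was 65.2% and 50.0%. For scale, the uninduced shG9a and shLSD1 lines, compared with each other over the same genes, differed at 2-fold in 90 genes upwards (0.688%) and 44 downwards (0.336%).

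**Figure D1:**
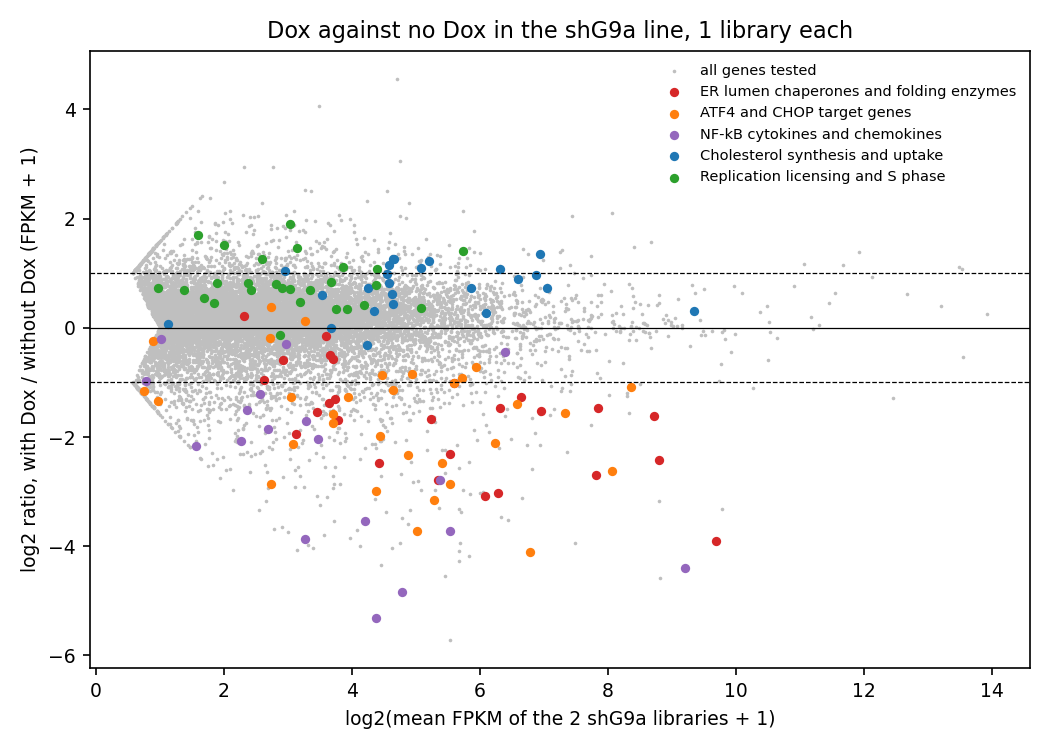
Each point is 1 of 13080 genes, with log2 of the mean FPKM of the 2 shG9a libraries plus 1 on the x axis and the log2 ratio of (FPKM + 1), with over without Dox, on the y axis. Dashed lines mark 2-fold, and coloured points are members of 5 gene lists. Nearly all ER chaperones and ATF4 and CHOP targets and all NF-kB cytokines lie below 0, and cholesterol and replication genes lie mostly above 0.

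The gene with the deepest fall was CTGF, a matricellular protein and target of YAP, from 90.3 to 0.741 FPKM. Its 3494 reads without Dox stood against 30 with it, a 122-fold lower FPKM with an interval of 85.3 to 181. IL1A, the alarmin interleukin-1 alpha, went from 39.8 to 0.0272 FPKM, or from 1397 reads to 1, and the interval of its decrease reached from 262-fold to 57815-fold. CXCL8, the neutrophil chemokine interleukin-8, went from 52.5 to 0.863 FPKM. These 3 genes encode secreted signals, and all had fewer than 40 reads left.
SLC2A1, the glucose transporter GLUT1, was among the most abundant transcripts without Dox, at 864 FPKM, and had 35.1 FPKM with it. LCN2, the iron-binding defence protein lipocalin-2, went from 1127 to 52.6 FPKM. FOS, an AP-1 subunit, went from 83.4 to 2.60 FPKM. The remaining 4 of the 10 deepest falls were TCIM (40.9 to 1.06 FPKM), the gap junction gene GJB2 (95.7 to 3.99), EGLN3, a prolyl hydroxylase that acts on HIF (107 to 4.94), and GDF15, a stress cytokine (208 to 11.2). In each of the 10 the counting interval lay wholly below 1.

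The largest increase was that of TXNIP, an arrestin-domain protein that restrains glucose uptake, from 1.12 to 48.9 FPKM, a ratio of 43.8 with an interval of 34.4 to 56.6. GLYATL2 followed, from 0.263 to 20.1 FPKM and from 8 to 641 reads. METTL7A had 4.80 and 47.1 FPKM. The mucin MUC13 was nearly unread without Dox, with 5 reads, and had 358 with it. The stem cell and squamous lineage factor SOX2 had 5.99 and 38.8 FPKM, and BMF, a BH3-only protein that promotes apoptosis, 1.88 and 15.5. Unlike several of the genes that fell, none of the 10 exceeded 50 FPKM in either library. The others were SAMD11, VAV3, MYLIP and MSMB, the last from 1 read to 41, with a ratio of 39.2 and an interval of 6.65 to 1584.

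**Figure D2:**
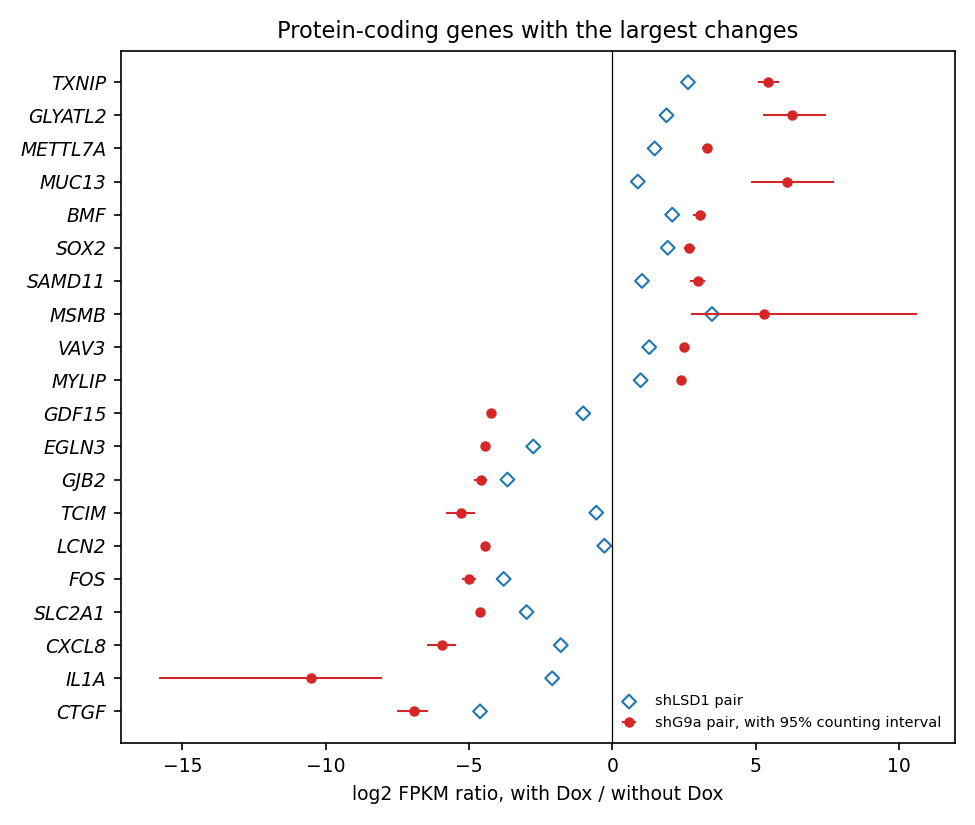
Log2 FPKM ratios without a pseudocount, with over without Dox, of the 10 protein-coding genes that fell most and the 10 that rose most. Red points are the shG9a pair with 95% counting intervals, which for IL1A and MSMB are wide because 1 of their libraries held 1 read, and open diamonds are the shLSD1 pair, in which each of these genes had the same sign.

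Among noncoding genes the deepest falls were at MIR3189, with 19 reads without Dox and 0 with it. The uninduced shLSD1 line had 2 reads of it, and against that library its log2 ratio was -1.35 in place of -4.06, so no size is read from it. The others were the keratin pseudogene KRT16P1 (699 to 8 reads) and MIR616 (34 reads to 1). MIR3189 lies within GDF15, MIR616 within DDIT3, and KRT16P1 resembles KRT16 and KRT17, so their reads cannot be told apart from those of these protein-coding genes. AC079466.1 had 10 reads without and 601 with Dox, and LINC02593 39 and 800. MIR6730 rested on 0 and 5 reads, too few to read a change from.

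Most ER chaperones and folding enzymes were lower with Dox. Of 26 members tested, 20 were downregulated at 2-fold and none upregulated, with a median log2 ratio of -1.54 against 0.18 over all genes. Their summed FPKM was 4801 without and 962 with Dox. HSPA5, the master ER chaperone BiP, was among the most abundant transcripts of the uninduced cells at 1551 FPKM and had 102 with Dox. Its decrease was 15.2-fold, with an interval of 14.8 to 15.5 from 100287 and 6922 reads.
HSP90B1, the ER paralog of HSP90 known as GRP94, went from 748 to 138 FPKM, and the lectin chaperone CALR from 634 to 206. PDIA4, a disulfide isomerase, had 388 and 58.9 FPKM. SDF2L1, which is a component of the ER chaperone complex, had 120 and 13.3, HYOU1, a nucleotide exchange factor of BiP, had 70.1 and 9.27, and ERO1A, the oxidase that recharges disulfide isomerases, had 137 and 15.9. At the other end, TXNDC11 (11.8 to 10.5 FPKM) and FKBP11 (3.62 to 4.39) stayed within 1.3-fold. TXNDC5 was listed below 1 FPKM in both libraries. It and ASNS are commonly expressed in cultured cells, and since the rule for reads that match several places is not given in the sources used here, such low values may not be levels of expression.

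Among the sensors and transducers of the unfolded protein response, 6 of 17 were downregulated at 2-fold and none upregulated, with a median of -0.69. The lists overlap, since HSPA5 is also counted with the ER chaperones and DDIT3 with the targets of ATF4 and CHOP. DDIT3, the transcription factor CHOP, went from 59.5 to 3.58 FPKM, and PPP1R15A, the phosphatase subunit GADD34 that reverses the eIF2alpha block on translation, from 180 to 19.9. XBP1 went from 68.6 to 29.0 FPKM and ERN1, its activating sensor IRE1, from 3.51 to 1.09. ATF4 was at 292 and 164 FPKM, ATF6 at 15.7 and 9.88, and EIF2AK3, the sensor PERK, at 3.53 and 2.31. The sensors therefore moved less than HSPA5 and DDIT3 did. In the machinery that removes proteins from the ER for degradation, 3 of 20 genes were downregulated, namely HERPUD1 (69.1 to 7.99 FPKM), SEL1L (22.5 to 7.20) and the ligase SYVN1 (27.4 to 10.8), whereas VCP, the extracting ATPase, had 36.9 and 61.1.

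Targets of ATF4 and CHOP were lower by a median of 1.40 on the log2 scale, with 23 of 31 downregulated and none upregulated. GDF15 and DDIT3 led the list, followed by STC2 (69.1 to 6.85 FPKM), the transcription factor ATF3 (35.8 to 3.66), the pseudokinase TRIB3 (80.2 to 10.1) and CHAC1, which degrades glutathione (10.8 to 0.617). Amino acid metabolism was represented by PSAT1 of serine synthesis (121 to 27.4 FPKM), PCK2 (33.6 to 7.75), the cystine transporter SLC7A11 (12.8 to 2.17) and its heavy chain SLC3A2 (240 to 81.0). PSPH (8.19 and 9.03 FPKM) and ATF5 (4.81 and 6.61) stood apart with higher values. ASNS, a usual member of this group, was listed at 0.516 FPKM without Dox and did not pass the filter, with the same doubt as for TXNDC5. Of the 20 cytosolic aminoacyl-tRNA synthetases, which charge tRNAs and include ATF4 targets, 6 were downregulated and none upregulated, led by WARS (80.2 to 17.3 FPKM), AARS (183 to 47.5), GARS (61.6 to 23.2) and YARS (26.4 to 10.9). RARS (37.6 to 66.0 FPKM) and VARS (12.2 to 20.8) lay on the opposite side at the 1.3-fold rule.

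**Figure D3:**
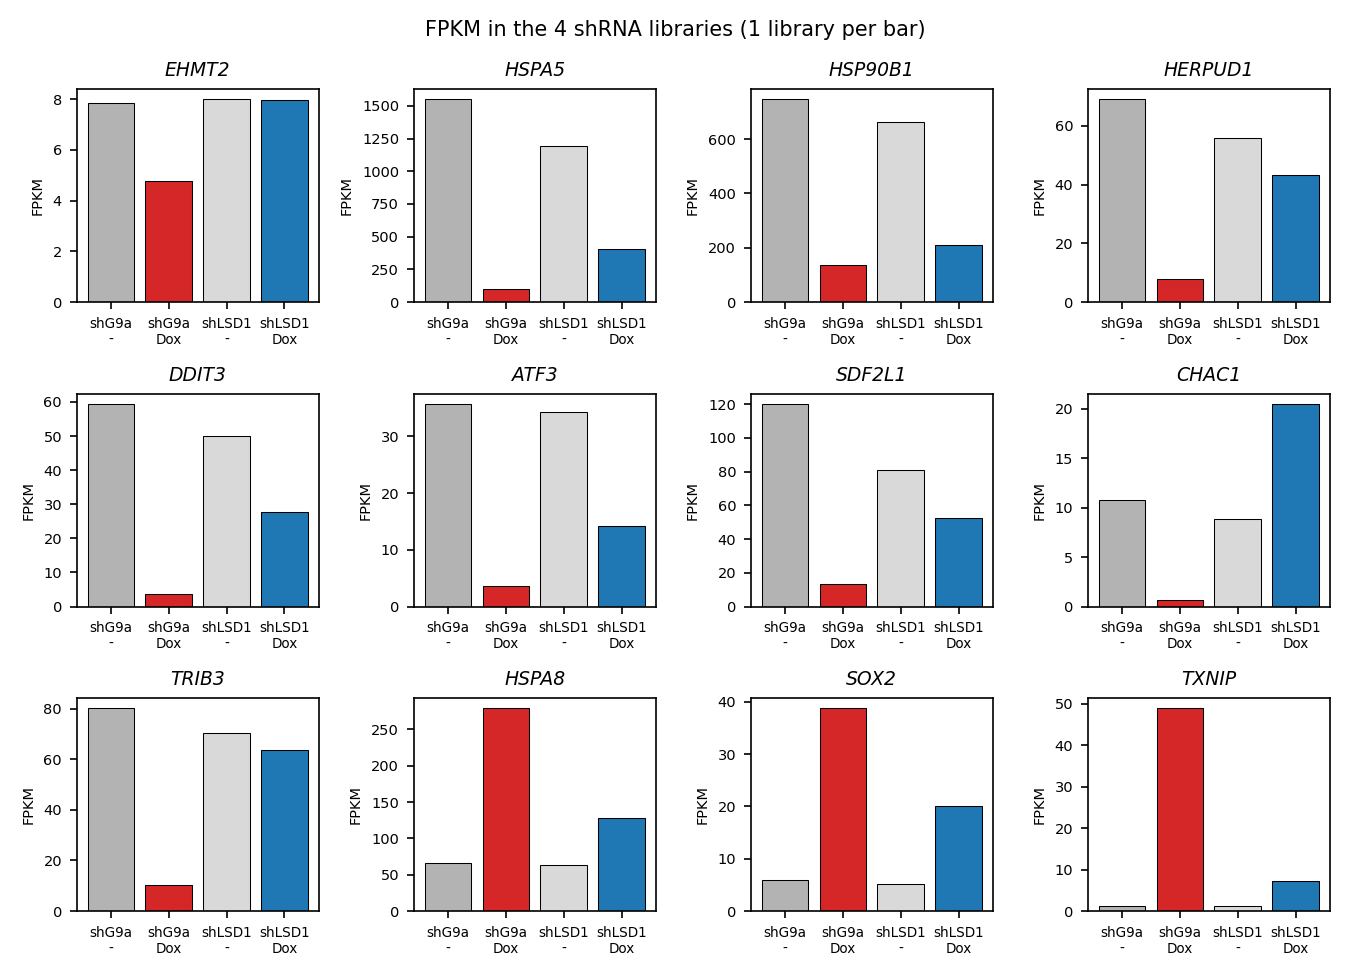
FPKM (y axis, from 0) of 12 genes in the shG9a and shLSD1 lines without (-) and with Dox, with 1 library per bar and its own scale for each gene. EHMT2 is lower in the induced shG9a library alone, the ER stress genes shown fall furthest there, CHAC1 is higher in the induced shLSD1 library, and HSPA8, SOX2 and TXNIP are higher with Dox in both lines.

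Promoters of ER stress genes were searched for elements already known for such genes, so matches in these groups are no independent support. The promoters of 3 of them are shown, beside that of the heat shock gene HSPA8, because matches fall in them. The ER stress element, bound by ATF6 and NF-Y, was taken as CCAAT and CCACG with 9 bases between them and searched on both strands in the 250 bases before to 50 bases after each RefSeq gene start (GRCh38.p14). It was present in 22 of 27305 promoters (0.0806%), in 6 of 25 promoters of ER chaperone genes (24%) and in 3 of 17 of the sensors and transducers (17.6%). These 3 were HSPA5, XBP1 and EIF2A, and HSPA5 is counted in both lists. The 250 bases before the start are printed with matches in capitals.
HSPA5, minus strand, chr9:125241344-125241593: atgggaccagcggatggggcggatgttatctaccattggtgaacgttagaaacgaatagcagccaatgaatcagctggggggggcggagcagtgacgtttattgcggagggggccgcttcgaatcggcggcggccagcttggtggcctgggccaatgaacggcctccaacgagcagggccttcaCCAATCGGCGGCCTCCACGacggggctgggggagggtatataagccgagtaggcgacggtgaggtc
HSP90B1, plus strand, chr12:103930160-103930409: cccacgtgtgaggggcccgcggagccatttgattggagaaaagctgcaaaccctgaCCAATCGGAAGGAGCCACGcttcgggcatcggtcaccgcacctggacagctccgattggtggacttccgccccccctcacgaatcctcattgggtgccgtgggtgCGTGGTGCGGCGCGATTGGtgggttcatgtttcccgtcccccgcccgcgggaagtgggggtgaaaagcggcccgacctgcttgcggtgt
HERPUD1, plus strand, chr16:56931892-56932141: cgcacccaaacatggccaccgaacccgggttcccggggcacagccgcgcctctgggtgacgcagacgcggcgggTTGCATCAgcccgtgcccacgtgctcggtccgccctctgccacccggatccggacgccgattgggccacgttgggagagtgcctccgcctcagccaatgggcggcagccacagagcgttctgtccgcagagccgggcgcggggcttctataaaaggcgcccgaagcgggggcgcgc
HSPA8, minus strand, chr11:123062137-123062386: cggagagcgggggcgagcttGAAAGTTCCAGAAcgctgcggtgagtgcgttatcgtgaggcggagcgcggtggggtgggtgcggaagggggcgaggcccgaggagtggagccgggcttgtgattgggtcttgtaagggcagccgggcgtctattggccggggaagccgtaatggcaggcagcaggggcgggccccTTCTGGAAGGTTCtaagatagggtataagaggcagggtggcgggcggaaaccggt
In HSPA5 and HSP90B1 the capitals mark the ER stress element, in HERPUD1 the composite site of C/EBP and ATF factors, TTGCATCA, and in HSPA8 the heat shock element, taken as GAA, TTC and GAA with 2 bases between neighbours, each read on either strand. TTGCATCA was present in 0.923% of all promoters and in 2 of 25 promoters of the ATF4 and CHOP list (8%). A shorter form, TGATGNAA with N for any base, was present in 3.67% of all promoters and in 6 of 25 of that list (24%). The heat shock element was present in 0.487% of all promoters and in 6 of 27 of the cytosolic heat shock list (22.2%). Among promoters of tested genes alone, the shares were 0.147% for the ER stress element, 0.441% for TTGCATCA, 1.53% for TGATGNAA and 0.272% for the heat shock element. Of 13 tested genes with the ER stress element, 7 (HSPA5, CRELD2, HSP90B1, ERO1B, CALR, CANX and XBP1) were downregulated with Dox in the shG9a line, against 4 in the shLSD1 line. All of these 7 but XBP1 are also among the ER chaperones already counted above. The median log2 ratio of the 13 was -1.22 in the first and -0.39 in the second. TRIM5, ALG12 and TMEM120A, which also hold the element, stayed between -0.19 and 0.08. Of 24 tested genes with the heat shock element, 2 were upregulated (HSPA8 and DNAJA1) and 1 downregulated (HSPA6), and their median of 0.13 was below the 0.18 of all genes. The elements searched for their groups were not found in the 250 bases before the start of DDIT3, TRIB3, HSPH1, HMGCS1 or INSIG1. The ER stress element was not found in those of HERPUD1 either. Only the exact letters of each element were searched, so a near match or another form of it would be missed. The elements were chosen after the data were seen, and a match describes letters, not a site in use.

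Cytosolic heat shock chaperones had a median above that of all genes. Of 28 members, 5 were upregulated and 1 downregulated, with a median of 0.54. HSPA8, the constitutive HSC70, went from 66.6 to 279 FPKM, its cochaperone DNAJA1 from 26.1 to 91.5, and HSPH1, the nucleotide exchange factor HSP110, from 5.21 to 16.4. HSP90AA1 was at 83.4 and 226 FPKM and its ATPase activator AHSA1 at 29.0 and 71.7. HSPA6, a strictly inducible HSP70, was the 1 downregulated member, at 8.13 and 0.463 FPKM. At 1.3-fold, 4 members were lower, among them DNAJB6 (8.98 to 4.58 FPKM), and 19 were higher. HSPA1A and HSPA1B, which share nearly all their sequence, stood at 32.0 and 42.3 and at 32.1 and 48.0 FPKM. HSPA8 and its ER relative HSPA5 moved in opposite directions, with log2 ratios of 2.05 and -3.91, whereas HSPA6 moved in the direction of HSPA5. Proteasome subunits changed less, with 18 of 28 higher at 1.3-fold, 1 at 2-fold (PSMD1, 11.2 to 25.9 FPKM), none lower, and a median of 0.47 (0.33 when centred). In mitochondrial protein quality control the median was 0.02, and LONP1 was the 1 of 15 genes past 2-fold, from 59.4 to 25.7 FPKM.

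Of the hypoxia and glycolysis genes, 20 of 28 were downregulated, with 1 upregulated and a median of -1.51. Besides SLC2A1 and EGLN3, CA9, the carbonic anhydrase used as a hypoxia marker, went from 95.9 to 4.74 FPKM and NDRG1 from 336 to 21.1. The vasodilator ADM was at 158 and 12.9 FPKM and hexokinase HK2 at 114 and 13.0. Abundant enzymes of glycolysis moved less, such as ENO1 (1133 to 575 FPKM), LDHA (212 to 98.8) and GAPDH (1737 to 1154). The upregulated member was TXNIP, and its relative ARRDC4 was at 1.99 and 3.66 FPKM. Glycolytic process was also 1 of the 5 deposited annotation terms, among 741 with at least 20 tested genes, with the highest share of 2-fold decreases, 35% of 20 genes. The other 4 were positive regulation of smooth muscle cell proliferation (39.4% of 33), response to cAMP (37.5% of 24), positive regulation of inflammatory response (34.5% of 29) and positive regulation of cell division (33.3% of 27). The smooth muscle term counts both NAMPT and its pseudogene NAMPTP1.

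Of 24 immediate early and AP-1 genes, 15 were downregulated and none upregulated, with a median of -1.52. Beside CTGF and FOS these included FOSL1 (32.1 to 1.07 FPKM), CYR61 (53.7 to 4.40), JUN (102 to 11.4) and MYC (206 to 67.2). The MAP kinase phosphatases DUSP5 (94.1 to 11.2 FPKM) and DUSP1 (37.1 to 4.80) fell too. IER2 alone was above 0, at 6.93 and 10.6 FPKM. NF-kB cytokines and chemokines had the lowest median of all lists, -2.06, with 14 of 18 downregulated and none of the 18 higher. After IL1A, CXCL8 and LCN2 came IL1B (17.0 to 0.224 FPKM), the feedback inhibitor TNFAIP3 (85.5 to 5.56), and the chemokines CCL20 (33.0 to 1.92) and CXCL1 (71.4 to 9.45). NFKBIA, the inhibitor of NF-kB that is itself a target, was at 96.1 and 70.1 FPKM.

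Among matrix and adhesion genes of the epithelial-mesenchymal transition list, none of 17 was upregulated and 7 were downregulated, among them the integrin ITGA5 (23.7 to 3.79 FPKM), TGFB1 (15.7 to 3.60) and TIMP3 (33.8 to 9.21). CDH1, the epithelial cadherin, stayed level at 81.8 and 78.7 FPKM. Antioxidant targets of NRF2 had 7 of 23 downregulated, none upregulated and a median of -0.60. SLC7A11, given above with the targets of ATF4 and CHOP, is also among the 7. The transporter ABCC3 went from 14.3 to 1.02 FPKM and ferritin light chain FTL from 7994 to 3260. AKR1C2, at 170 and 53.5 FPKM, has near-identical relatives with which its reads may be shared. HMOX1, another NRF2 target, was at 6.89 and 9.87 FPKM.

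Keratins and lineage genes moved both ways, with more members lower than higher at 1.3-fold. Of 17 keratins, 7 were downregulated and 2 upregulated. At 1.3-fold 10 keratins were lower and 4 higher, and the median was -0.57. KRT17, a keratin of activated epithelium, went from 1596 to 158 FPKM, KRT75 from 6.32 to 0.795 and KRT16 from 12.3 to 3.99. KRT14 and KRT13 went from 1.59 to 4.91 and from 7.08 to 17.3 FPKM, and the basal keratin KRT5, at 177 and 312, was higher at 1.3-fold. KRT16, KRT17 and related keratins have close relatives and pseudogenes, so single members are less certain than the group. Of the 24 regulators of the squamous lineage, SOX2 and HES2 (2.16 to 13.0 FPKM) were upregulated and KLF4 (9.27 to 2.18) and BARX2 (5.88 to 1.51) downregulated. Over all genes, 5.13% were upregulated and 6.02% downregulated. At 1.3-fold 10 regulators were lower and 5 higher, and their median was -0.34. TP63, the master regulator of the lineage, was at 40.5 and 31.8 FPKM. In the cornified envelope list the median was 0.02 and fell to -0.12 when centred. TGM1, the crosslinking enzyme, went from 13.6 to 2.21 FPKM, the envelope protein IVL from 3.65 to 0.322, and CAPNS2 from 6.25 to 18.1.

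The lists of proliferation, sterol, mitochondrial genome and interferon genes had medians above that of all genes, with most members short of 2-fold. Of 27 genes of replication licensing and S phase, 8 were upregulated and 23 were higher at 1.3-fold, with none lower and a median of 0.74. RRM2, the ribonucleotide reductase subunit of S phase, went from 2.49 to 12 FPKM, CCNE1 from 1.09 to 4.96, E2F1 from 3.74 to 12, E2F2 from 0.421 to 3.62 and the clamp PCNA from 28.3 to 76.3. Of the 27 G2/M genes, 6 were upregulated, none was below 0 and the median was 0.65. The kinase AURKB had 5.99 and 24.7 FPKM, KIF20A 7.94 and 26.8, CDC25B 16.4 and 47.2, and the proliferation marker MKI67 3.41 and 10.6. Replication-dependent histone genes had a median of 0.96 over the 9 tested, with 4 upregulated, HIST1H2BK most (100 to 436 FPKM). Most histone transcripts have near-identical copies and lack a poly(A) tail, so how many of them are read depends on the library preparation.

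Cholesterol synthesis had a median of 0.78, with 8 of 24 genes upregulated (5 when centred) and none lower at 1.3-fold. HMGCS1, the entry enzyme, was at 67.7 and 175 FPKM, EBP at 13.8 and 34.3, LSS at 14.0 and 34.7 and the feedback protein INSIG1 at 21.3 and 50.8. Nucleosome assembly (29.3% of 58 genes), response to heat (25.9% of 27) and the cholesterol biosynthetic process (25.8% of 31) were the 3 annotation terms with the highest share of 2-fold increases, ahead of the p53-class intrinsic apoptotic pathway (22.7% of 22) and transcription at the G1/S transition (22.7% of 22). Their background was 5.13%. The counts include pseudogenes that may share reads with their parent genes, such as HSP90AA2P in response to heat and H3F3AP4 and H3F3AP6 in nucleosome assembly. E2F1 is counted in both the p53-class and the G1/S term.

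Of the 15 mitochondrial genome genes, 6 were upregulated (3 when centred) with a median of 0.76, among them MT-CYB (2152 to 5606 FPKM), MT-ND2 (2025 to 4467) and MT-CO2 (7245 to 15693). The ribosomal RNAs MT-RNR1 and MT-RNR2 were below 0. Reads of the mitochondrial genome were 8.49% (95% Clopper-Pearson interval 8.48 to 8.51) of the library without and 11.3% (11.3 to 11.3) with Dox, and 8.65% and 10.3% in the shLSD1 line. The part of this shift in the FPKM of other genes was not tested. Interferon-stimulated genes had a median of 0.50, with 3 of 28 upregulated, namely IFITM1 (10.5 to 45.2 FPKM), PARP9 (2.40 to 9.30) and DDX58, the RNA sensor RIG-I (2.35 to 9.01). OASL, at 7.29 and 3.40 FPKM, and IFIT2, at 5.22 and 3.42, were lower at 1.3-fold. In the shLSD1 line the same 28 genes had a median of 0.67 and 7 were upregulated. In antigen presentation the immunoproteasome gene PSMB8 went from 30.8 to 68.1 FPKM and the peptide transporter TAP1 was at 13.0 and 22.9, while the heavy chains HLA-B (74.8 and 38.8) and HLA-C (91.6 and 58.7), whose sequences overlap, were lower at 1.3-fold.

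In the BCL2 family, which sets the threshold of apoptosis, BMF, BCL2L11 (3.14 to 8.74 FPKM) and PMAIP1 (21.3 to 43.9), all BH3-only genes, were upregulated, and BIK (53.6 to 21.7), a BH3-only gene of the ER, was downregulated. PMAIP1 was near the limit, at 1.01 on the log2 scale, and went below it when ratios were centred. Among CDK inhibitors and p53 targets, 6 of 20 were upregulated, including SESN1 (1.31 to 5.01 FPKM) and TP53I3 (1.18 to 3.77), and GADD45A (45.6 to 10.2) and GADD45B (33.1 to 6.40) were downregulated, with CDKN1A, the inhibitor p21, at 45.3 and 26 FPKM. In the remaining lists, 1 of 27 lysosome and autophagy genes was downregulated (WIPI1, 4.92 to 1.46 FPKM) with a median of -0.08. MT2A, a metallothionein, went from 96.3 to 207 FPKM, as 1 of 5 genes of its list. IGFL2-AS1, the 1 tested member of the IGFL cluster, went from 3.38 to 12.1 FPKM. No cancer-testis gene of the 3 tested passed 2-fold, MAGEA3 being at 41.3 and 62.1 FPKM.

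**Figure D4:**
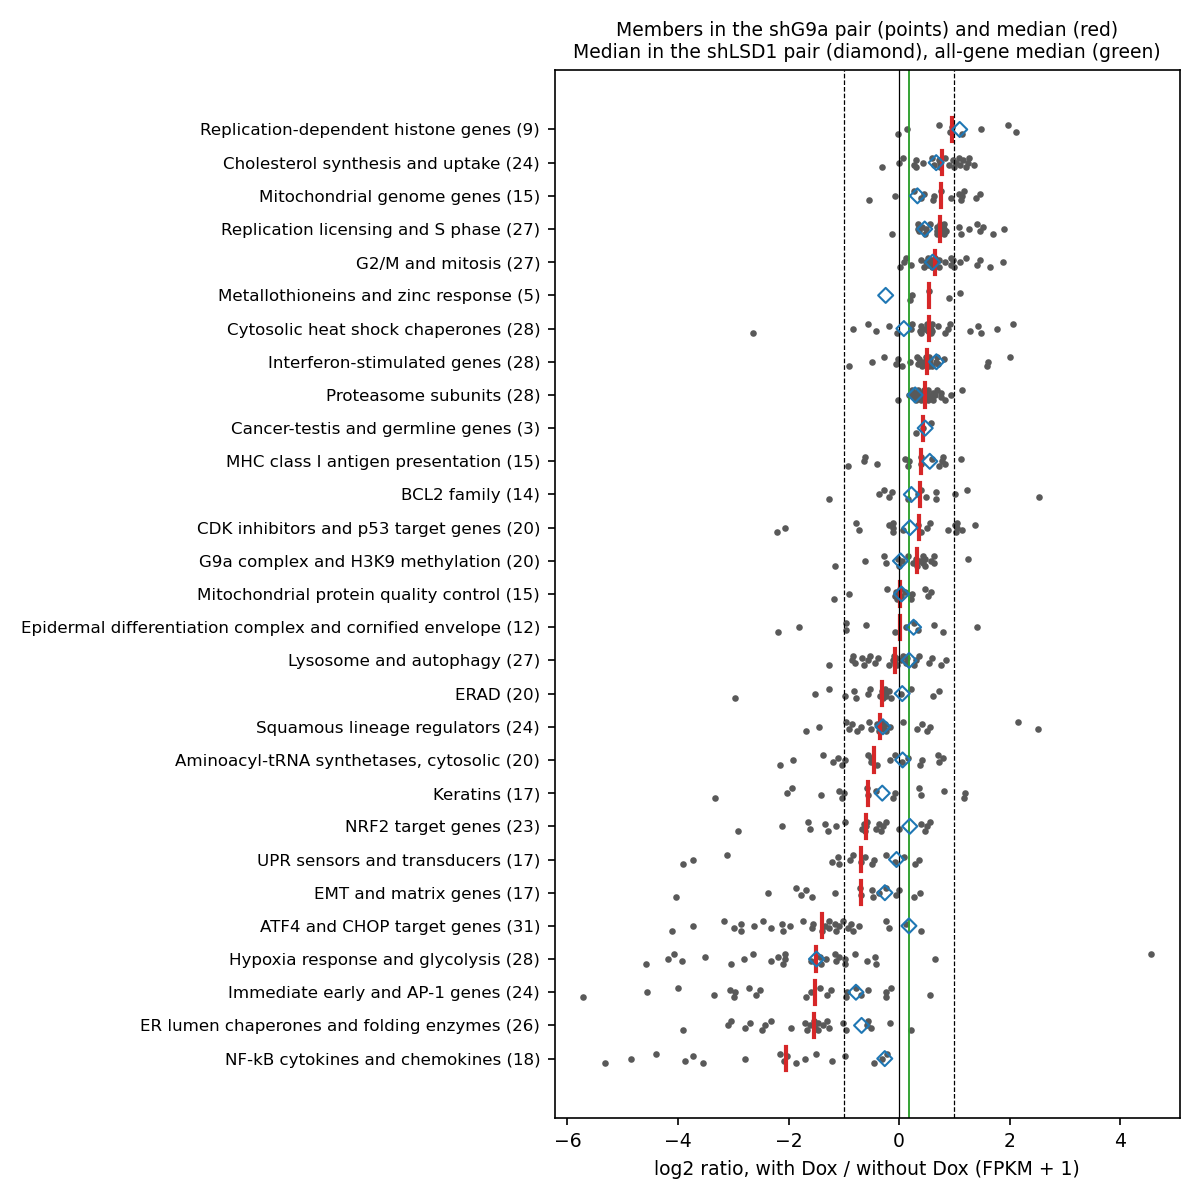
Log2 ratios of (FPKM + 1), with over without Dox, of the tested members of each gene list, given in brackets. Points are genes of the shG9a pair, red bars their medians, blue diamonds the median of the same genes in the shLSD1 pair, the green line the median of all genes (0.18) and dashed lines 2-fold. Among lists with more than 1 tested gene, the medians run from -2.06 for NF-kB cytokines to 0.96 for histones, and the 2 lines lie far apart for ATF4 and CHOP targets and close together for hypoxia genes.

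The shLSD1 line shows what Dox and another hairpin did in cells made in the same way, and shares no library with the shG9a pair. Over the same 13080 genes, 343 were upregulated at 2-fold there (2.62%) and 353 downregulated (2.70%), with a median log2 ratio of 0.12. Both lines shared 115 upregulated genes, 17.1% of the shG9a list and 33.5% of the shLSD1 list, and 246 downregulated genes, 31.2% and 69.7%. In opposite directions, 12 genes were higher in the shG9a line and lower in the shLSD1 line, 1.79% of the upregulated shG9a list. The reverse held for 22 genes, 2.79% of the downregulated shG9a list. Over all genes, 2.70% were downregulated and 2.62% upregulated in the shLSD1 line, so these shares lay below and close to those of all genes. Apart from KRT13, the 12 were short noncoding genes with at most 16 reads in any shRNA library. Some of the 22 were also noncoding genes with few reads, such as MIR5581 (1 read without and 0 with Dox in the shG9a line). Of the shG9a calls, 232 upregulated (34.6%) and 243 downregulated genes (30.8%) changed less than 1.3-fold in the shLSD1 line. Of all 13080 genes, 3037 were higher and 1501 lower at 1.3-fold there. Being level there was thus less common among these calls than over all genes.

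Genes that fell in both lines were led by CTGF, AKAP12 (49.5 to 2.28 FPKM in the shG9a line and 59.6 to 2.96 in the shLSD1 line), FOS, PGF (18.9 to 0.213 and 22.6 to 1.08) and GJB2. Hypoxia genes had nearly the same median in both, -1.51 and -1.50. TNFSF10, the death ligand TRAIL, and TXNIP were the protein-coding genes among the 5 that rose most in both, TNFSF10 from 5.29 to 24.0 and from 5.53 to 27.9 FPKM, and TXNIP from 1.12 to 48.9 and from 1.15 to 7.18. AL021807.1 had 1 read without Dox and 34 with it in the shG9a line. The remaining genes, RNU6-415P (0 and 5 reads) and an RNA of the RF00019 family (1 and 11), are too thinly covered to read a change from. Cholesterol genes had a median of 0.67 in the shLSD1 line, G2/M genes 0.60 and histones 1.09, close to 0.78, 0.65 and 0.96.

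Other groups differed between the lines, although with 1 library per condition the difference itself was not tested. ATF4 and CHOP targets had a median of 0.18 in the shLSD1 line, with 4 of 31 downregulated, against -1.40 and 23. The tRNA synthetases had 0.06 and none downregulated, against -0.46 and 6, and NRF2 targets 0.19 and none, against -0.60 and 7. ER chaperones were lower in both, with a median of -0.68 and 10 of 26 downregulated in the shLSD1 line. NF-kB cytokines had -0.26 and 5 of 18 there, against -2.06 and 14. The uninduced lines already differed in some of these groups. The median log2 ratio of shG9a over shLSD1 without Dox was 0.21 for NRF2 targets and 0.19 for ER chaperones. It was 0.06 for ATF4 and CHOP targets, 0.03 for tRNA synthetases and 0.01 for NF-kB cytokines. The part of this in the contrast between the lines was not tested. Among single genes that fell at least 2-fold in the shG9a line and stayed within 1.3-fold both in the shLSD1 pair and between the uninduced lines, the deepest were LCN2, CCL20, CYP24A1, a vitamin D hydroxylase (9.70 to 0.0581 FPKM), ABCC3 and HERPUD1. LCN2 was at 1166 and 964 FPKM in the shLSD1 pair, and HERPUD1 at 55.8 and 43.2. On the upper side the rule gave MUC13 and 4 noncoding genes, of which AL645608.6 (3 to 29 reads) was the best covered and the others had at most 4 reads.

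**Figure D5:**
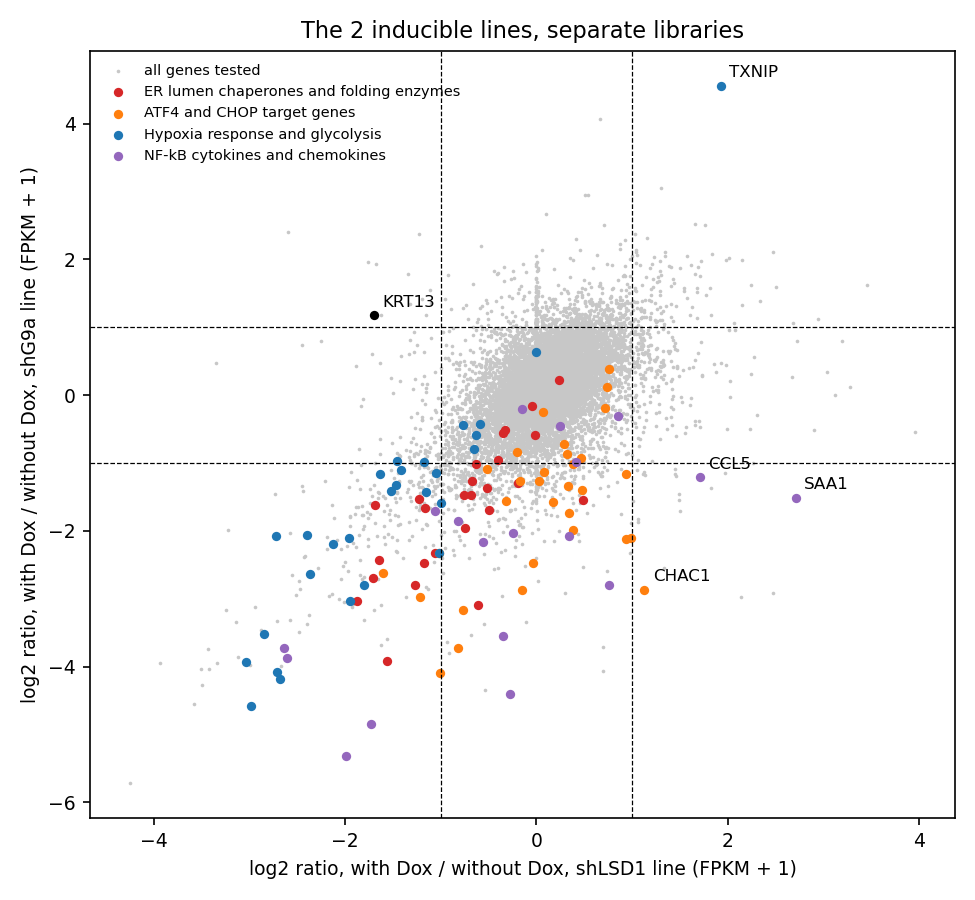
Log2 ratios of (FPKM + 1), with over without Dox, of 13080 genes in the shLSD1 line (x axis) and the shG9a line (y axis), with 1 library per condition and dashed lines at 2-fold. Hypoxia genes fall along both axes, ATF4 and CHOP targets spread downwards near 0 on the x axis, and CHAC1, SAA1, CCL5 and KRT13 lie in the quadrants of opposite direction.

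UNC0642, which inhibits the enzyme activity of G9a, offered a comparison with separate libraries (7 µM for 2 days, against vehicle). Over 13004 of the genes, 423 (3.25%) were upregulated and 277 (2.13%) downregulated. Of the genes upregulated in the shG9a line, 36 were upregulated by UNC0642 (5.65% of the first list and 8.51% of the second) and 28 downregulated. Of those downregulated in the shG9a line, 93 were downregulated by UNC0642 (12.1% and 33.6%) and 171 were upregulated (22.2% of the shG9a list).
Several ER stress genes that fell in the shG9a line were also downregulated by UNC0642. HSPA5 was at 1462 FPKM with vehicle and 251 with UNC0642, DDIT3 at 70.6 and 5.70, HERPUD1 at 121 and 7.82 and SDF2L1 at 75.9 and 10.7. By list, 10 of 26 ER chaperones, 18 of 31 ATF4 and CHOP targets and 5 of 20 tRNA synthetases were downregulated by UNC0642, and 1 ER chaperone, ERO1A, was upregulated, with a log2 ratio of 1.43 in place of -3.03. Of the immediate early, hypoxia and NF-kB lists, 13 of 24, 12 of 28 and 9 of 18 genes were upregulated by it and 0, 0 and 2 downregulated, where 15, 20 and 14 had fallen in the shG9a line. IL1A was at 31.0 and 184 FPKM, FOSL1 at 6.19 and 78.9, and CXCL8 at 29.1 and 153. SOX2, upregulated in the shG9a line, was at 18.3 FPKM with vehicle and 4.94 with UNC0642. The levels of the 2 experiments were also far apart before treatment, with SLC2A1 at 864 FPKM in the uninduced shG9a line and 151 with vehicle, and CTGF at 90.3 and 5.90. The part of this in the differing responses was not tested.

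The guide strand could also act on transcripts with a match to its seed. In 3' untranslated regions of canonical transcripts, 1581 tested genes held at least 1 copy of AACAAGA, the complement of the seed, and 9121 held none. The median log2 ratio in the shG9a pair was 0.09 with and 0.18 without a copy, and in the shLSD1 pair 0.11 and 0.13. Regions with a copy were longer, and among those of 500 to 2000 bases the medians were 0.11 and 0.18 in the shG9a pair and 0.10 and 0.14 in the shLSD1 pair. Downregulation at 2-fold occurred in 5.63% of genes with and 5.44% of genes without a copy. These comparisons were chosen after the data were seen and are descriptions without a test.

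By gene type, 385 of the 671 upregulated and 587 of the 788 downregulated genes were protein-coding, which was 3.58% and 5.46% of the 10751 tested. Annotated miRNA genes (111) and snRNA genes (92) passed 2-fold far more often, 35.1% and 39.1% upwards and 28.8% and 21.7% downwards. Such genes are short, and those named above had at most 34 reads in either shG9a library. Decreases past 2-fold were more frequent among abundant genes, although their median log2 ratio was 0.03. Of the 322 genes with a mean of at least 100 FPKM, 5.90% were upregulated and 12.1% downregulated, compared with 3.86% and 5.33% of the 4688 genes between 5 and 20 FPKM. Zinc finger genes of chromosome 19 were nearly unmoved at 2-fold, with 1 of 97 upregulated (1.03%), none downregulated and a median of 0.23. Over all genes the shares were 5.13% and 6.02% and the median was 0.18. At the threshold of the selection, the lowest value inside was 1.00024 FPKM and the highest outside 0.999869. Within 0.05 FPKM of the limit, 164 genes lay inside and 185 outside, each set with a median log2 ratio of 0.14.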

How the data were processed

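RNA-seq libraries of Kyse510 cells were deposited by the authors as FPKM per gene, in 1 table for the 4 shRNA libraries and another for the inhibitor libraries, which were normalized separately. Per the labels the genome build was GRCh38. The aligner, counter and strand setting are not given in the sources used here. The authors' annotation terms were taken from the same table.

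Genes with at least 1 FPKM in either shG9a library were kept, and ratios were taken of FPKM + 1. Calls were made at 1.3-fold, the fold of the study without its p-value limit, and at 2-fold. With 1 library per condition no test was run. Whole reads were recovered from the steps of the FPKM values. For 5611 single-exon genes, at least 99.9% of values came out whole within 0.01 of a read. These reads gave the 95% Clopper-Pearson intervals, which cover counting error only. Library totals were 16540175 to 17754601 reads across the shRNA libraries. The recovery was tested on simulated data.

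The genes named are EHMT2, EHMT1, KDM1A and WIZ, the 10 protein-coding and 3 noncoding genes with the largest ratio in each direction, up to 4 members of each of 30 lists, and 5 genes in each direction that were level, or moved likewise, in the shLSD1 pair. Other list members named in the text, exceptions to a list's direction included, were chosen after their values were seen. The comparison, its members and the lists were chosen with earlier results of these data known. Alternatives were other pseudocounts (0.1 and 0.01), no filter or 5 FPKM, centred ratios, other uninduced controls, protein-coding genes alone and the counting interval. Hairpin matches used GENCODE 44, and promoters RefSeq on GRCh38.p14. Python 3.11.15, pandas 2.3.3, NumPy 2.4.6, SciPy 1.17.1 and matplotlib 3.10.9 were used. A few genes that the rule names are not reported here.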

Additional observations from a re-analysis of the deposited data

Results flagged for a closer look

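The genes below moved at least 2-fold with Dox in the shG9a line and at least 2-fold the opposite way in the shLSD1 line. This was the case for 34 genes, of which the protein-coding ones and those named in the report are given. The difference between the lines was not tested, since each pair has 1 library a side. The 12 that rose in the shG9a line were 1.79% of its upregulated genes, where 2.70% of all genes were downregulated in the shLSD1 line. The 22 that fell were 2.79% of its downregulated genes, where 2.62% of all genes were upregulated in the shLSD1 line. Apart from KRT13, the 12 were short noncoding genes with at most 16 reads in any shRNA library, too few to read a change from. Some of the 22 were as thinly read, such as MIR5581, with 1 read without and 0 with Dox in the shG9a line. Values are log2 ratios of (FPKM + 1) with over without Dox, first in the shG9a and then in the shLSD1 line. SPP1, the secreted matrix protein osteopontin, had -2.91 and 2.47, from 610 to 50 reads in the first line and from 523 to 3040 in the second. CHAC1, a target of ATF4 and CHOP, had -2.86 and 1.13. SAA1, an acute phase protein, had -1.51 and 2.71, and the chemokine CCL5 had -1.21 and 1.71. INHBE, an inhibin subunit, had -1.83 and 1.06, and SULT2B1, a sterol sulfotransferase, -1.45 and 1.49. PDZK1IP1 had -1.14 and 1.97, SPTSSA -1.17 and 1.45, VNN2 -1.08 and 1.45, TNFAIP2 -1.18 and 1.13, UPK3B -1.87 and 1.07, and CALB2 -1.55 and 1.01. KRT13, a keratin of stratified squamous epithelium, was the protein-coding gene that rose in the shG9a line and fell in the other, with 1.18 and -1.70. MIR6730 had 2.41 and -2.60, on 0 and 5 reads and on 6 and 0 reads.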

How the results depend on the processing

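No paired analysis was possible because each condition has 1 library, and for the same reason no replicate could be left out. Of 117 alternative values of the main counts, 103 stayed within 1.5 times and 14 did not. Genes upregulated at 2-fold (671) numbered 1385 with a pseudocount of 0.1, 1495 with 0.01, 354 at a minimum of 5 FPKM, 414 with centred ratios and 385 among protein-coding genes. Those downregulated (788) numbered 1225 with a pseudocount of 0.01. At 1.3-fold, a minimum of 5 FPKM gave 2459 upregulated and 1383 downregulated genes. A pseudocount of 0.01 gave 10 upregulated G2/M genes in place of 6, and centring gave 3 mitochondrial genome genes in place of 6 and 5 cholesterol genes in place of 8. Genes upregulated in both Dox pairs (115) numbered 73 when centred and 350 with a pseudocount of 0.1, and those downregulated in both (246) numbered 381 with 0.1. The log2 ratio of MIR6730 was -0.19 against the uninduced shLSD1 line, in place of 2.41. Smaller pseudocounts and higher minimums act on genes of low level by construction. The list medians of the cornified envelope and of mitochondrial protein quality control changed sign when centred, both to -0.12, and PMAIP1 (0.87), PSMB8 (0.98) and MT2A (0.95) no longer passed 2-fold.

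With 1 library per condition, the intervals say how well 2 libraries were counted and nothing of how cultures vary. Dox and the hairpin cannot be told apart, and EHMT2 retained 4.76 of 7.85 FPKM. For genes with a few reads, a 2-fold difference was not readable at this depth.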
